A study of Mus musculus with 4 samples.

Results

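The genes described here are 46 interferon-stimulated antiviral genes, together with the interferon receptors and the transcription factors that switch them on, in cultured mouse lung fibroblasts. They were taken from a named list, and a gene entered the results when the array annotation gave a row of the expression table its symbol and no other. This held for 43 of the 46 genes, out of 19938 genes measured that way. Isg15 and Igtp share their rows with another gene symbol and Ifi44 was matched to no row, so these 3 genes are not analysed here.

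Expression was measured on 4 Affymetrix arrays. Samples A and B of the KrasD12 group are named as in the labels and carry the number 493. Samples A and B of the wild-type (WT) group carry the number 494. The sample titles do not say what the numbers stand for, and each is read here as 1 line. Both lines came from the lungs of mice aged 3 to 4 weeks, whose tissue was digested with collagenase, and the labels name no treatment. Each genotype is represented by 1 line, so an effect of genotype and one of the line cannot be told apart. The labels do not state whether A and B were cultured separately, and p-values therefore measure only the spread between these samples, which may be technical.

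Interferons are secreted proteins that warn cells of infection by viruses. Type I interferons bind a receptor made of IFNAR1 and IFNAR2, type II interferon binds IFNGR1 and IFNGR2, and both receptors act through JAK kinases on STAT proteins. STAT proteins and IRF9 then form a complex that binds the interferon-stimulated response element in front of antiviral genes, whose products sense viral RNA, block its translation, stop virus release or switch the response off again. Fibroblasts are a classic source and target of type I interferon, and cultured cells keep a low level of many of these genes without infection.

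Values are log2 expression values as deposited, and every difference is KrasD12 minus WT. The columns of the 2 groups did not share 1 distribution: their medians were 6.24 and 6.26 in KrasD12 and 5.90 and 5.91 in WT, and the median difference of all genes was 0.26, or -0.0038 after quantile normalization, which gives the 4 columns the same distribution. On the deposited values the median difference was 0.39 among genes with a mean of 5 to 6 and 0.07 among those with a mean of 9 to 10. A gene is therefore said to have risen or fallen only where limma, at an adjusted p under 0.05 over all genes, called it on both scalings with 1 sign. The dim level, 5.15, was set by odorant and vomeronasal receptor genes: 95% of their 1212 rows had a mean below it. In 40 members both group means lay above it, in Oas3 that of KrasD12 only, and in Mx1 and Epsti1 neither. All 12 fibroblast markers lay above the dim level in both groups.

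Members that fell far outnumbered members that rose in the KrasD12 line. On the deposited values limma called 21 of the 43 members lower, against 11.9% of all genes, and 6 higher, against 50.1% of all genes. On both scalings 21 members fell and 1, Ifngr1, rose, against backgrounds of 11.5% and 22.4%. After quantile normalization alone 26 were called lower and 1 higher, against 24.4% and 22.5% of all genes. A further 5 members were called lower on that scaling only, 5 were called higher on the deposited values only, and 11 were called on neither scaling. Calls on 1 scaling only were also common over all genes. Lower were 24.4% after quantile normalization but 11.5% on both scalings, and higher were 50.1% as deposited but 22.4% on both. Such calls are therefore not read as a result about the members. The median of the 43 members' differences was -0.34 as deposited and -0.43 with quantile normalization. The difference of 35 members lay below that of the 500 genes nearest in mean level, against 49.9% of all genes, and the median distance was -0.46. The 21 falls ran from 1.81 down to 0.22 on the log2 scale. Herc6 and Rtp4 alone fell at least 2-fold on both scalings, a size reached by 1.28% of all genes, and no member rose by that much (background 1.23%).

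The calls rest on few samples. With KrasD12 A left out, limma called 4 members lower, against 5.82% of all genes, and with KrasD12 B left out also 4, against 3.88%. With WT A removed, or WT B removed, it called 0 members and 0 genes in all. At an unadjusted p under 0.05 the fit without WT A had 12 members lower, against 9.36% of all genes, and the fit without WT B had 20, against 9.83%. In either direction 9846 and 10022 genes passed that unadjusted p.

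**Figure D1:**
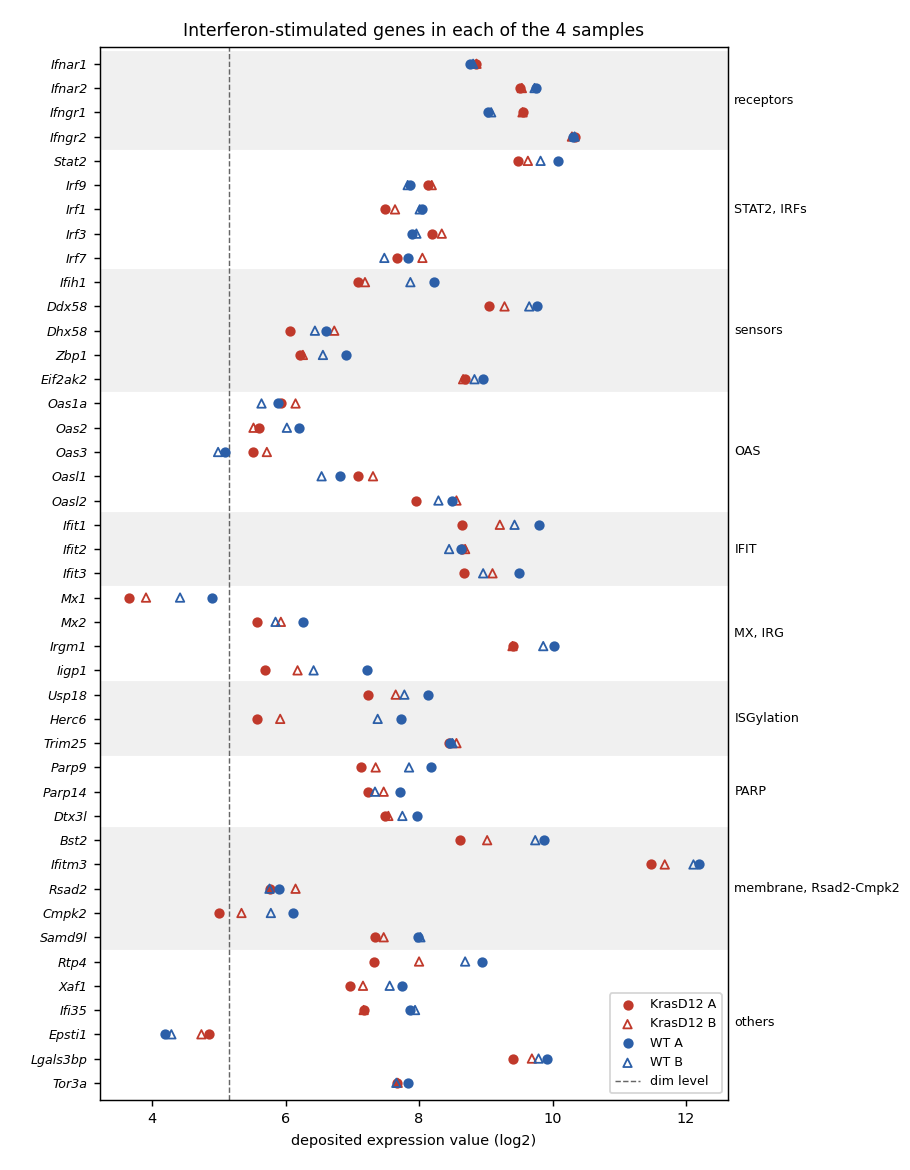
Deposited log2 value (x axis) of the 43 members (rows, grouped by role) in each of the 4 samples: filled circles are samples A and open triangles samples B, red for KrasD12 and blue for WT, and the dashed line is the dim level of 5.15. For Herc6, Rtp4, Bst2 and Ifih1 both red symbols lie left of both blue ones, whereas the 4 values of Ifngr2, Ifit2 and Trim25 lie close together.

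Of the 4 receptor chains, 1 of the type II receptor rose and 1 of the type I receptor fell. Each makes 25% of the group, against 22.4% of all genes that rose and 11.5% that fell. The share that rose is thus near that of all genes, and the fall is of 1 gene. Ifngr1, the ligand-binding chain of the type II receptor, stood at 9.56 and 9.55 in KrasD12 A and B and at 9.04 and 9.08 in WT A and B. The pairs lay far apart compared with their spread, and the difference was 0.50 ± 0.07 (limma adjusted p = 0.00251; here and elsewhere the error is limma's moderated SE, with n = 2 in each group), or 0.42 after quantile normalization. Its partner chain Ifngr2 differed by -0.005, with values of 10.34 and 10.29 against 10.31 and 10.33 that overlap. Ifnar2, which binds type I interferon tightly and carries STAT2, stood at 9.51 and 9.54 in KrasD12 and 9.75 and 9.73 in WT. This small fall, -0.22 ± 0.07 (limma adjusted p = 0.0341), was the least of the 21. Ifnar1, the other chain of that receptor, differed by 0.08 as deposited and by -0.01 after quantile normalization and was called on neither.

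Of the 5 transcription factors, Stat2 and Irf1 fell and the other 3 missed the call on at least 1 scaling. The 2 that fell make 40% of the group, against 11.5% of all genes. Stat2, which joins IRF9 at the response element, stood at 9.48 and 9.63 in KrasD12 and 10.08 and 9.82 in WT, a difference of -0.40 ± 0.11 (limma adjusted p = 0.0275). Irf1, a factor induced by both interferon types, had the largest difference of the group, with 7.49 and 7.64 in KrasD12 and 8.05 and 8.01 in WT, or -0.47 ± 0.08 (limma adjusted p = 0.00541). A second, dimmer row of Irf1 went the other way, with 6.27 and 6.20 in KrasD12 against 5.70 and 5.90 in WT, so the direction of Irf1 depends on the row chosen, and with the rows averaged the difference was -0.015 and was not called. Irf9, the DNA-binding part of the STAT2 complex, and Irf3, which is activated by viral RNA sensing, were called higher on the deposited values only (0.32 and 0.34, or 0.15 and 0.18 after quantile normalization). Irf7, which amplifies interferon production, differed by 0.21 and 0.01 on the 2 scalings, with ranges that overlap.

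Of the 5 cytoplasmic sensors of viral nucleic acid 3 fell (60%, against 11.5% of all genes). Ifih1, the gene of MDA5, which senses long double-stranded RNA, stood at 7.09 and 7.19 in KrasD12 and 8.23 and 7.87 in WT. Its difference was -0.91 ± 0.13 (limma adjusted p = 0.00316), or -1.12 after quantile normalization. Ddx58, the gene of RIG-I, which senses RNA with a triphosphate end, stood at 9.05 and 9.28 against 9.76 and 9.65 and fell by 0.54 ± 0.10 (limma adjusted p = 0.00707). Zbp1, a sensor of Z-form nucleic acid that can start necroptosis, stood at 6.21 and 6.26 against 6.90 and 6.56. It fell by 0.50 on the deposited values, by 0.81 after quantile normalization and by 0.33 on the deposited values with WT A left out. Eif2ak2, the gene of PKR, which halts translation on double-stranded RNA, was called lower after quantile normalization only (-0.22 deposited, -0.32 quantile). Dhx58, the gene of LGP2, a regulator of the RNA sensors, differed more within KrasD12 (6.07 in A and 6.73 in B) than between the groups (6.61 and 6.44 in WT) and was not called.

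Genes of the oligoadenylate synthetase family, several of whose products activate an RNase that cuts viral RNA, did not move together. Oas2 fell, from 6.20 and 6.02 in WT to 5.60 and 5.52 in KrasD12 (-0.55 ± 0.09, limma adjusted p = 0.00435), and by 0.91 after quantile normalization. Oas3 had the largest deposited difference of the group, with 5.52 and 5.72 in KrasD12 against 5.09 and 4.99 in WT, but its 0.58 shrank to 0.20 after quantile normalization, where it was not called. Oasl1 likewise stood at 0.53 and 0.25. Oas1a changed sign between the scalings, from 0.28 to -0.08. Oasl2 stood at 7.95 and 8.56 in KrasD12 and 8.49 and 8.29 in WT, so that the WT values lie between those of KrasD12. Rows of these closely related genes may share signal, so how they divide is uncertain.

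Of the IFIT proteins, which bind foreign RNA and block its translation, Ifit1 fell and Ifit2 and Ifit3 were not called. The 1 fall makes 33.3% of the group, against 11.5% of all genes. Ifit1 stood at 8.65 and 9.21 in KrasD12 and 9.79 and 9.43 in WT, with a difference of -0.68 ± 0.21 (limma adjusted p = 0.0377). Without KrasD12 A the difference was -0.40 and without KrasD12 B it was -0.96. Ifit3 stood at 8.67 and 9.10 in KrasD12 and 9.49 and 8.96 in WT, where WT B lies within the KrasD12 range. Ifit2 differed by 0.13 as deposited and 0.005 after quantile normalization. Ifit3b, a related gene outside the members and named here after its value was seen, was called lower on both scalings. It stood at 6.09 and 6.78 in KrasD12 and 7.50 and 7.06 in WT (-0.85 ± 0.26, limma adjusted p = 0.0348, or -1.12 quantile). Whether rows of these related genes share signal was not tested.

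Among the Mx and immunity-related GTPases 3 of 4 measured members fell (75%, against 11.5% of all genes). Iigp1, a GTPase that attacks the vacuoles of intracellular parasites, stood at 5.69 and 6.18 in KrasD12 and 7.22 and 6.42 in WT. The difference of -0.89 ± 0.29 (limma adjusted p = 0.0447) was -1.29 without WT B and -0.49 without WT A. Irgm1, a regulator of that family, was tighter, with 9.41 and 9.40 in KrasD12 and 10.02 and 9.86 in WT (-0.54 ± 0.08, limma adjusted p = 0.00367). Mx1, which traps incoming viral ribonucleoprotein, stood at 3.65 and 3.91 against 4.90 and 4.42, all below the dim level, so its fall of 0.88 ± 0.18 (limma adjusted p = 0.00925) is a difference between dim signals. Mx2, its paralogue, was called lower after quantile normalization only (-0.31 deposited, -0.67 quantile), and its deposited difference was -0.10 without WT A and -0.51 without WT B.

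The widest difference of all members was in the ISG15 conjugation group. Herc6, the ligase that attaches the ubiquitin-like protein ISG15 to newly made proteins in mice, stood at 5.57 and 5.92 in KrasD12 and at 7.73 and 7.38 in WT. All 4 values lay above the dim level and the pairs were well separated, with a difference of -1.81 ± 0.16 (limma adjusted p = 0.00103), a WT level 3.51 times that of KrasD12, or -2.10 after quantile normalization. Usp18, the protease that removes ISG15 and damps receptor signalling, was called lower after quantile normalization only, with 7.23 and 7.65 in KrasD12 and 8.13 and 7.78 in WT (-0.52 deposited, limma adjusted p = 0.0513; -0.31 without KrasD12 A and -0.73 without KrasD12 B). Trim25, a ubiquitin ligase that activates RIG-I, differed by 0.03 as deposited and -0.11 after quantile normalization.

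Dtx3l and Parp9, which form a ubiquitin ligase complex that sustains interferon signalling, fell together. Parp9 stood at 7.13 and 7.35 in KrasD12 and 8.18 and 7.85 in WT (-0.78 ± 0.14, limma adjusted p = 0.00594), and Dtx3l at 7.49 and 7.54 against 7.97 and 7.75 (-0.35 ± 0.09, limma adjusted p = 0.0244). By the gene order of the mouse assembly the 2 genes are next to each other with 0 coding genes between them, and Parp14, a related ADP-ribosyltransferase gene, lies next to Dtx3l. Parp14 was not called (-0.18 deposited, -0.40 quantile), and its values of 7.23 and 7.47 in KrasD12 overlap those of 7.71 and 7.34 in WT.

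Of the membrane and nucleotide-acting effectors 4 of 5 fell (80%, against 11.5% of all genes). Bst2, the gene of tetherin, which holds budding virus particles on the cell surface, stood at 8.61 and 9.02 in KrasD12 and 9.87 and 9.74 in WT, a difference of -0.99 ± 0.15 (limma adjusted p = 0.00342). Ifitm3, which blocks fusion of viruses in endosomes, stood at 11.48 and 11.68 against 12.20 and 12.11 (-0.58 ± 0.09, limma adjusted p = 0.00446), or -0.40 after quantile normalization. Samd9l, an inhibitor of virus translation and growth, stood at 7.34 and 7.47 against 7.99 and 8.02 and fell by 0.60 ± 0.08 (limma adjusted p = 0.00225). Cmpk2 and Rsad2 are adjacent genes, and the kinase encoded by the former supplies the substrate of viperin, the product of the latter. Cmpk2 fell, with 5.0 and 5.34 in KrasD12 and 6.11 and 5.78 in WT (-0.78 ± 0.16, limma adjusted p = 0.00944, or -1.15 quantile). Its KrasD12 A value lay below the dim level of 5.15 and its KrasD12 mean, 5.17, just above, so the size of this fall is uncertain. Rsad2 was not called, with 5.77 and 6.15 against 5.90 and 5.76 (0.13 deposited, -0.23 quantile).

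Of the 6 remaining effectors measured, Rtp4, Xaf1 and Ifi35 fell (50%, against 11.5% of all genes). Rtp4, a transmembrane protein known to restrict flaviviruses, stood at 7.33 and 8.0 in KrasD12 and 8.95 and 8.69 in WT. The difference of -1.16 ± 0.23 (limma adjusted p = 0.00852) exceeded the gap of 0.67 between the KrasD12 samples. Ifi35, a partner of NMI, had a small spread, with 7.18 and 7.17 against 7.86 and 7.94 (-0.73 ± 0.07, limma adjusted p = 0.00113). Xaf1, an antagonist of the apoptosis inhibitor XIAP, stood at 6.96 and 7.16 against 7.74 and 7.56 and fell by 0.59 ± 0.10 (limma adjusted p = 0.00593). Lgals3bp, a secreted glycoprotein, and Tor3a, a torsin ATPase, were called lower after quantile normalization only (-0.35 and -0.27). On the deposited values Lgals3bp differed by -0.16 without KrasD12 A and by -0.45 without KrasD12 B, and Tor3a by 0.015 without WT A and by -0.165 without WT B. Epsti1, dim in both groups, was called higher on the deposited values only (0.56, or 0.15 quantile).

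**Figure D2:**
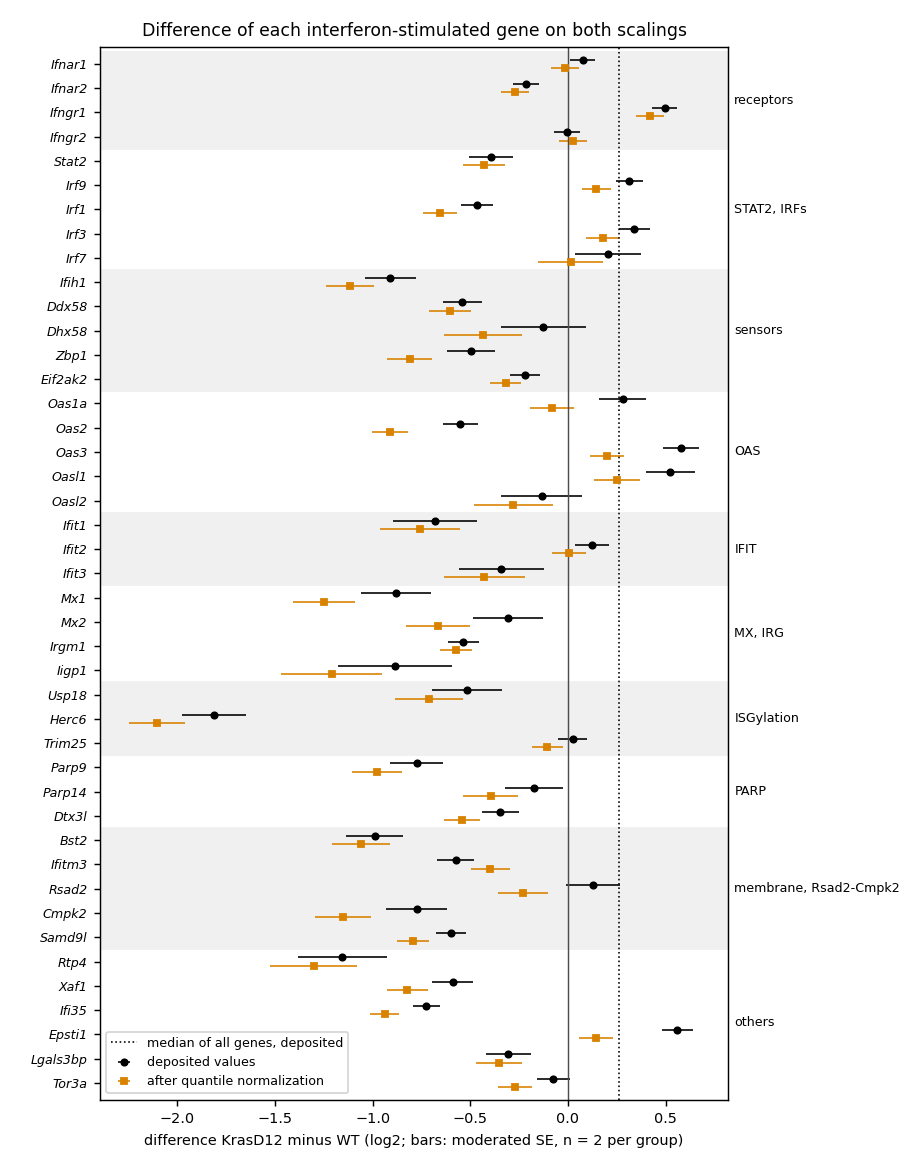
Difference KrasD12 minus WT on the log2 scale (x axis) of the 43 members (rows), with limma's moderated SE as bars and 2 samples per group: black circles are deposited values and orange squares values after quantile normalization. Herc6 lies farthest left at -1.81 and -2.10, and Ifngr1 alone was called to the right of 0 on both scalings (0.50 and 0.42); the dotted line marks the median of all genes, 0.26.

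**Figure D3:**
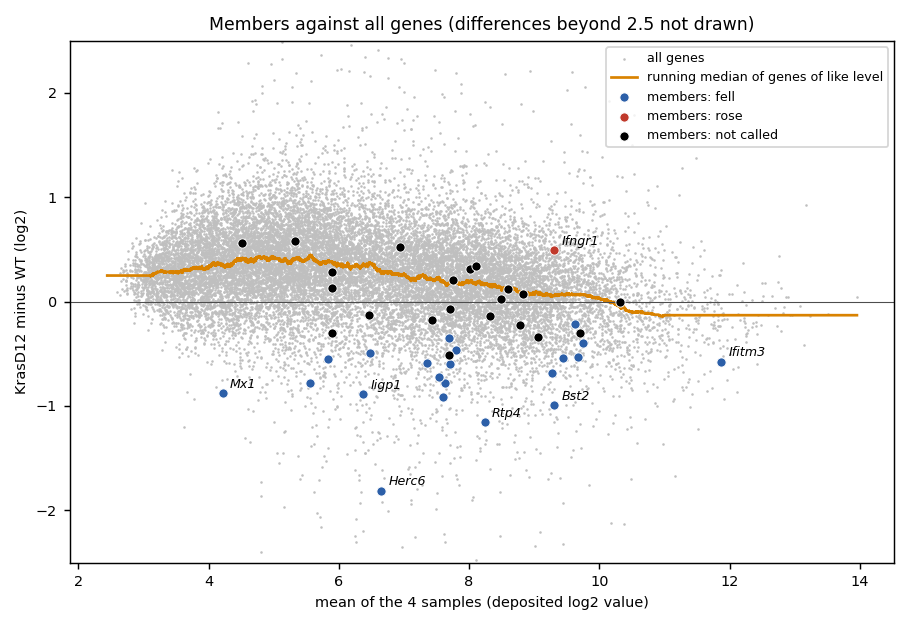
Difference KrasD12 minus WT (y axis, log2) against the mean of the 4 samples (x axis, log2) for all 19938 genes in grey, with differences beyond 2.5 not drawn, and members coloured by call. The orange running median of genes of like level is above 0 for dim genes and below 0 for the brightest, and 35 of the 43 members lie under it.

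The spread between A and B was itself shared by the members. The median gap between A and B was 0.20 in KrasD12 and 0.18 in WT, against 0.09 and 0.08 over all genes. The gap passed 0.5 for Rtp4, Dhx58, Oasl2 and Ifit1 in KrasD12 (4 of 43, against 0.712% of all genes) and for Iigp1 and Ifit3 in WT (2 of 43, against 0.441%). It also ran one way: 35 of 43 members were higher in KrasD12 B than in KrasD12 A, against 52.3% of all genes, and 35 were higher in WT A than in WT B, against 47% of all genes. Both held for 32 members, or 74.4%, against 24.3% of all genes. The distance between the lines therefore depends on which samples are set against each other. The median member difference was -0.56 for KrasD12 A minus WT A, -0.34 for A minus B, -0.39 for B minus A and -0.17 for KrasD12 B minus WT B, whereas the same 4 medians over all genes lay between 0.24 and 0.27. The 21 members that fell were lower in all 4 of these pairs, as they must be when ranges do not overlap, with medians from -0.72 to -0.44. Over the 43 members, deposited ranges did not overlap and lay lower in KrasD12 for 24 (background 18.7%) and higher for 9 (background 64.3%). After quantile normalization the counts were 29 lower (background 38.2%) and 7 higher (background 36.9%).

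**Figure D4:**
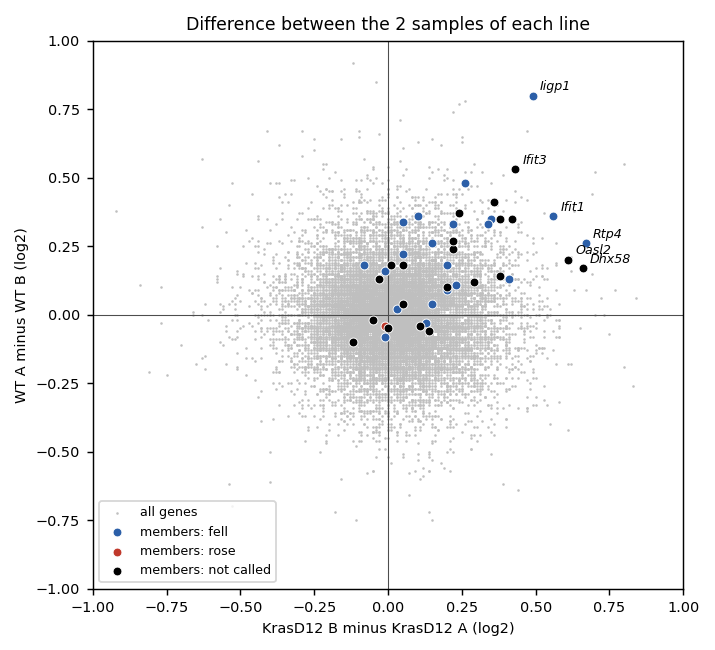
KrasD12 B minus KrasD12 A (x axis, log2) against WT A minus WT B (y axis, log2) for all genes in grey (values beyond 1 not drawn) and the 43 members coloured by call. The grey cloud is centred near 0, while 32 members lie in the upper right, where both differences are above 0, with Iigp1, Ifit3, Ifit1, Rtp4, Oasl2 and Dhx58 farthest out.

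The promoters of several members hold the letters of the interferon-stimulated response element. RefSeq promoter windows of assembly GRCm38.p6, 250 bases before to 50 after the start, were matched to 35 of the 46 genes. Its core, GAAA, any 2 bases and GAAA, read on either strand, was found in 14 of these 35 genes (40%), against 3.99% of all genes with a window. The gamma-activated element TTCNNNGAA was found in 10 (28.6%), against 9.55%, and in Bst2 and Ifitm3 matches to the 2 motifs overlap. Among members with an array row the core was found in 7 of 15 that fell and in 5 of 16 that were not called, so matches occur on both sides of the call. A match is a description of the window and not evidence of binding, and no match for Herc6 says only that these letters are not in its window.

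The stretches shown here are upstream of the start, 5′ to 3′ on the gene's strand, with every match to the core in capitals (TTTC, any 2 bases and TTTC is the core read on the other strand). The first 4 belong to members that fell. The other 3 belong to members without a call on both scalings and were chosen after their values were seen. Rsad2, also without a call, holds a core 120 to 111 bases upstream and is not shown. They lie at chr8:71537547-71537642 (minus strand) for Bst2, chr19:34640745-34640853 (plus) for Ifit1, chr11:48871421-48871490 (minus) for Irgm1, chr10:128270248-128270325 (plus) for Stat2, chr19:34583333-34583456 (plus) for Ifit3, chr5:120907526-120907585 (minus) for Oas1a and chr5:120777685-120777774 (minus) for Oas3. In Bst2, Irgm1 and Oas1a a pair of overlapping cores forms 1 run of 16 bases, and Ifit1 and Ifit3 each hold a pair of separate cores.
Bst2: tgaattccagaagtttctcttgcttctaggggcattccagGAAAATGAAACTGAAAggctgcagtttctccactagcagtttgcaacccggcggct
Ifit1: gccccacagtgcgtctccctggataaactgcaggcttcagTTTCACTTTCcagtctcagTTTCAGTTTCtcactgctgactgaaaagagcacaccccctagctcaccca
Irgm1: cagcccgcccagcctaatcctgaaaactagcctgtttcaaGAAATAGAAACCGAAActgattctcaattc
Stat2: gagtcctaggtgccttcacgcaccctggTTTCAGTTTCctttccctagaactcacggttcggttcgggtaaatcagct
Ifit3: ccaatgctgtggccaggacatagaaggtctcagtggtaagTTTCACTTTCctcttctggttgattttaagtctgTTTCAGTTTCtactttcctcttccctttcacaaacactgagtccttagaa
Oas1a: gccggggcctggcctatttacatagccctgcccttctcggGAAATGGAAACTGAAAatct
Oas3: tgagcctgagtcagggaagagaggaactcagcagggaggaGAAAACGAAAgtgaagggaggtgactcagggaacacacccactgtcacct

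Neighbouring members did not all share a call. Oas2 fell and Oas3, the next coding gene, was not called. Cmpk2 fell and Rsad2 beside it was not called. Ifnar2 fell, while Ifnar1, with 1 coding gene between them, and Ifngr2, the gene next to Ifnar1, were not called.

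Other interferon-stimulated genes were examined as a list that shares no gene with the members. Of 59 listed, 49 were measured, 14 fell and 5 rose (28.6% and 10.2%, against 11.5% and 22.4% of all genes), and the median difference was -0.01 deposited and -0.17 quantile. Sp100, a nuclear body protein, stood at 4.45 and 4.66 in KrasD12 and 5.84 and 5.75 in WT and fell by 1.24 ± 0.09. Herc3, a ligase related to Herc6, stood at 5.11 and 5.17 against 6.08 and 6.21 (-1.01 ± 0.08), so that only the WT means of both genes lay above the dim level. Slfn9 of the Schlafen family fell by 0.87 ± 0.11, and Slfn5 of the same family rose by 0.86 ± 0.08 with both group means below the dim level. The limma adjusted p of these 4 genes lay between 0.00076 and 0.00231.

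The lists upstream of the members had shares of called genes near those of all genes. Of 26 measured sensing and adaptor genes (29 listed) 5 rose and 4 fell (19.2% and 15.4%, against 22.4% and 11.5% of all genes), with a median of 0.19 deposited and 0.01 quantile. Tlr4, the receptor of bacterial lipopolysaccharide, stood at 8.57 and 8.48 in KrasD12 against 7.64 and 7.62 in WT (0.90 ± 0.07), and Ticam2, its adaptor, rose by 0.85 ± 0.06. Ddx41, a helicase linked to DNA sensing, rose by 0.62 ± 0.10. Ddx60, a helicase of the RIG-I pathway, fell by 0.54 ± 0.13, with 6.05 and 6.35 against 6.84 and 6.63.

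Of 14 measured JAK-STAT transducers and brakes (15 listed) 4 rose and 1 fell (28.6% and 7.14%, against the same backgrounds). Ifnlr1, a chain of the type III interferon receptor, rose by 1.03 ± 0.09, and Ptpn6, a phosphatase mainly of blood cells, by 0.89 ± 0.08, both with WT means below the dim level. Socs1, the feedback inhibitor of JAK kinases, stood at 7.06 and 7.20 in KrasD12 against 6.61 and 6.55 in WT (0.55 ± 0.08, or 0.27 after quantile normalization). Jak2, a kinase of the type II receptor, rose by 0.45 ± 0.09. Ptpn11, named here after its value was seen, was the gene that fell (-0.23 ± 0.07).

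Interferon genes themselves were measured for 16 of 21 listed, of which 9 had both group means below the dim level. On both scalings 4 rose (25%, against 22.4% of all genes) and 0 fell (against 11.5%). After quantile normalization alone 4 were called higher and 4 lower, against 22.5% and 24.4% of all genes. The list median was 0.37 deposited and 0.00 quantile. Ifnz stood at 8.73 and 8.68 in KrasD12 and 7.47 and 7.65 in WT (1.15 ± 0.09, limma adjusted p = 0.000741), and Ifna5 at 6.85 and 6.73 against 6.12 and 6.10 (0.68 ± 0.07, or 0.36 quantile). Ifna12 and Ifnk rose by 1.16 and 0.60 with both means below the dim level. The Ifna genes are near-identical copies, so which of them gave the signal of an Ifna row is uncertain.

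**Figure D5:**
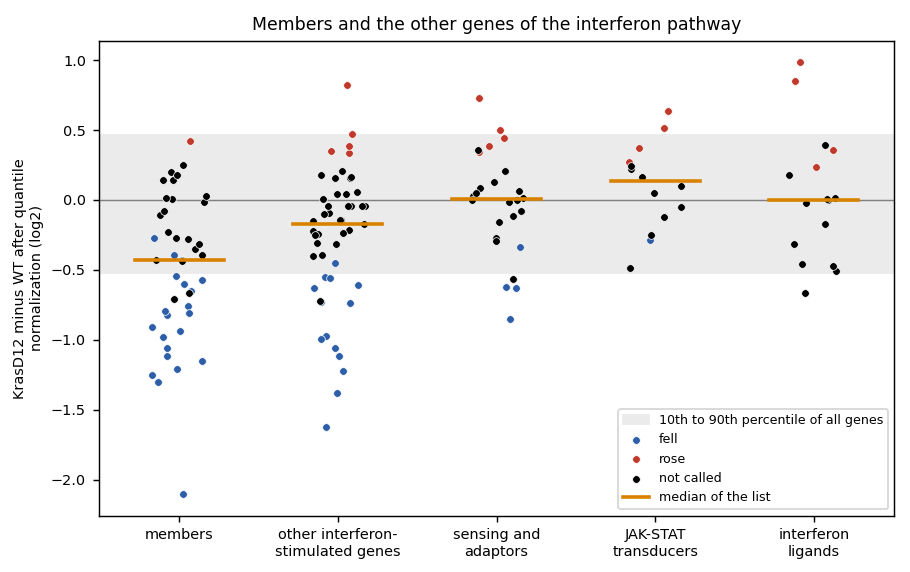
Difference KrasD12 minus WT after quantile normalization (y axis, log2) of the 43 members and of the genes of 4 other lists (x axis), coloured by call on both scalings, with each list's median as an orange bar and the 10th to 90th percentile of all genes shaded. The medians are -0.43 for the members, -0.17 for the other interferon-stimulated genes, 0.01 for sensing and adaptor genes, 0.13 for JAK-STAT transducers and 0.00 for interferon genes.

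Of 16 measured leukocyte and macrophage markers, 8 had a KrasD12 mean and 5 a WT mean above the dim level, and their summed linear level was 629 to 633 in KrasD12 and 504 to 526 in WT, against 40099 to 40217 and 46151 to 46624 for the fibroblast markers. Ptprc, the pan-leukocyte gene, lay below the dim level in all 4 samples (4.29, 4.19, 4.04 and 4.04). The macrophage-associated genes Lyz2 (4.56 and 4.70 in KrasD12, 6.01 and 6.20 in WT) and Csf1r (4.93 and 5.03 against 5.46 and 5.36) fell. Only the WT means of Lyz2 and Csf1r lay above the dim level. Of the 16 leukocyte and macrophage markers 4 rose and 2 fell, and 11 were called higher on the deposited values. Fcer1g, an Fc receptor subunit, rose by 0.79 with its WT mean below the dim level. Adgre1, the gene of F4/80, rose by 0.63 with both group means below the dim level. Cd68 differed by 0.71 with a call on the deposited values only. The part of these markers in the result was not tested. Summed epithelial markers ran from 568 to 621 in KrasD12 and 439 to 444 in WT, and endothelial markers from 347 to 354 and 265 to 288. These sums are of deposited values, in which dim genes lay higher in KrasD12: the median differences of leukocyte, epithelial and endothelial markers were 0.53, 0.47 and 0.31 as deposited and 0.16, 0.09 and -0.07 after quantile normalization. In such samples fewer cells of a type and less RNA per cell cannot be told apart.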

How the data were processed

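The deposited table holds log2 expression values for 28944 rows and 4 samples; per the submitters' processing notes the authors used the Transcriptome Analysis Console. Which version, background correction and normalization they ran is not given in the sources used here. Platform annotation, updated through the mouse gene table of GRCm38.p6, gave 21789 rows 1 symbol, 1621 several and 5534 none. For the 999 genes with several rows the row with the highest mean was used, which left 19938 genes. Genes were fitted with limma 3.58.1 under R 4.3.3 (functions lmFit and eBayes, group as the only term, two-sided, Benjamini-Hochberg over all genes), on the deposited values and again after quantile normalization, and the script was tested on simulated data. With 2 samples per group and 2 residual degrees of freedom, the number of arrays limits the precision.

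Members and lists were chosen with earlier results of these data known. Sample values are given for members called on both scalings, the largest difference of each role group and members whose A and B differ by over 0.5, and up to 4 called genes of each other list, or the largest 2 where under 2 were called; further members are named as examples. Alternatives were quantile, median and cyclic loess scaling, leaving out dim genes, the trend and robust options of eBayes, averaging all rows of a gene, the replicate letter as a block and each array left out. Tables and plots used the R package data.table, version 1.17.8, and pandas 2.3.3, Python 3.11.15 and matplotlib 3.10.9.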

Additional observations from a re-analysis of the deposited data

How the results depend on the processing

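The count of members called lower, 21 on the deposited values, was 26 after quantile normalization or cyclic loess, 31 after centring columns, and 21 to 24 with the filter on dim genes, either eBayes option or the mean of rows. It was 12 with the replicate letter as a block, and 12 also on both scalings. Of all genes, 11.9% were called lower as deposited and 24.4% after quantile normalization. For the other settings the share of all genes is not given here, so those counts have no background. After centring, the median difference of all genes was -0.085, against 0.26 as deposited. The fallen members that lost the deposited call with the block were Rtp4, Stat2, Ifnar2, Ifit1, Iigp1, Mx1, Cmpk2, Zbp1 and Dtx3l. Nothing says that the letters pair samples, and the A minus B differences of the 2 lines correlated at 0.013 across genes. The count called higher, 6, was 1 after quantile normalization or cyclic loess and 0 after centring. All genes called higher made 50.1% as deposited and 22.5% after quantile normalization. Leaving out 1 array gave 0 to 2 members higher, 0 to 4 lower, 0 to 1 risen and 0 to 4 fallen on both scalings. At least 2-fold on both scalings were 2 that fell and 0 that rose. The member median was -0.685 after centring and -0.485 to -0.235 with 1 array left out.

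Members that changed sign under an alternative were all called on neither or 1 scaling. After quantile normalization, centring and cyclic loess the values were -0.0144, -0.27 and -0.0274 for Ifnar1, -0.0812, -0.065 and -0.1002 for Oas1a, -0.105, -0.32 and -0.1096 for Trim25, and -0.23, -0.215 and -0.2506 for Rsad2. Ifngr2 stood at 0.0275 and 0.021 after quantile normalization and cyclic loess, and Irf7 at -0.14 after centring and -0.0002 with cyclic loess. After centring Irf9 stood at -0.03, Irf3 at -0.005 and Ifit2 at -0.22. With 1 array left out the range was -0.455 to 0.205 for Dhx58, -0.44 to 0.17 for Oasl2, -0.03 to 0.08 for Trim25, -0.36 to 0.01 for Parp14, -0.06 to 0.32 for Rsad2, -0.165 to 0.015 for Tor3a and -0.03 to 0.02 for Ifngr2. The cause was not tested.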
